A study of Mus musculus with 8 samples.

Results

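The genes described here are the cathepsins, the subunits and accessory proteins of the vacuolar proton pump, and 3 families of lysosomal membrane proteins, measured in mouse leg muscle after its nerve was cut. They were taken by name: every gene whose symbol begins with Cts and 1 further letter (the cathepsins), Atp6v or Atp6ap (the pump), or Lamp, Laptm or Mcoln (the membrane proteins), and whose probe set carried no other symbol. This gave 48 of the 14860 genes measured, namely 18 cathepsins, 20 proton pump genes (11 of the V1 part, 7 of the V0 part and 2 accessory genes) and 10 membrane genes (4 Lamp, 3 Laptm and 3 Mcoln). Each was measured by 1 probe set. The pump subunit genes Atp6v0c, Atp6v1f and Atp6v1g1 are not analysed here, and 1 probe set for Atp6v0a4 was left out because it carried a second symbol.

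Denervated tibialis anterior muscle was compared with innervated tibialis anterior muscle, 4 arrays of each. All samples came from male C57BL/6 mice aged 8 weeks; the left sciatic nerve was cut, and the muscles of both legs were collected 7 days afterwards. The innervated muscle was thus the other leg's muscle of an operated mouse, with no sham operation named. The question was how the loss of the nerve changes the level of each mRNA, as array intensity on a log2 scale, where equal differences are equal ratios of intensity.

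The lysosome is the acidic compartment in which cells break down proteins, lipids and carbohydrates delivered by endocytosis and autophagy. Cathepsins are its proteases, most of them cysteine proteases that work best at acid pH. The acid is made by the vacuolar proton pump, a rotary enzyme whose V1 part splits ATP in the cytosol and whose V0 part carries protons across the membrane, while the Lamp and Laptm proteins and the mucolipin channels sit in the lysosomal membrane. In skeletal muscle, lysosomal breakdown fed by autophagy works beside the proteasome during the wasting that follows loss of the nerve. Many lysosomal genes in human and mouse cells carry a short palindromic element near their start, to which the transcription factor TFEB and its relatives bind.

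That element, TCACGTGA, was searched for in the promoter windows that RefSeq gives for assembly GRCm38.p6, from 250 bases before to 50 bases after the first transcribed base. Both the element and the shorter CACGTG that it contains are palindromes, so that a search of either strand finds the same sites. Of the 48 genes 38 had such a window. TCACGTGA was found in 6 of these 38 (15.8%): Atp6v0d1, Atp6v0e, Atp6v1a, Ctsa, Ctsd and Mcoln1. It occurred in 0.974% of all 32851 windows, and in those of 202 of the 11894 measured genes with a window (1.7%). The shorter CACGTG was found in 11 of the 38 (28.9%), adding Atp6v0b, Ctsf, Ctsl, Lamp1 and Mcoln2, against 7.15% of all windows and 10.1% of the measured genes with a window. These shares describe letters in a window, not bound sites.

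The windows of the 6 genes with TCACGTGA are shown, of which 3 rose in denervated muscle and 3 did not. That of Ctsl is shown too, chosen because it rose. Atp6v0b, Ctsf, Lamp1 and Mcoln2, which like Ctsl held CACGTG alone, did not rise and are not shown. Of all 11 genes with CACGTG 4 rose. Each runs 5′ to 3′ on the strand of the gene, 250 bases before its start and 30 after it, with TCACGTGA or CACGTG in capitals. Coordinates are those of GRCm38.p6, and positions count from 1 at the first transcribed base and from -1 before it. In Ctsd the longer element lay at -99 to -92, in Atp6v1a at -132 to -125, in Atp6v0e at 3 to 10, in Atp6v0d1 at -4 to 4 and in Mcoln1 at -46 to -39. Ctsa had 2 windows, and the one shown held it at -13 to -6 and again at 5 to 12. The other window of Ctsa held neither TCACGTGA nor CACGTG. The CACGTG of Ctsl began at -236. Ctsd and Mcoln1 each held a further CACGTG outside the longer element, beginning at -245 and at -71.
Ctsd, chr7:142387798-142388077, minus strand: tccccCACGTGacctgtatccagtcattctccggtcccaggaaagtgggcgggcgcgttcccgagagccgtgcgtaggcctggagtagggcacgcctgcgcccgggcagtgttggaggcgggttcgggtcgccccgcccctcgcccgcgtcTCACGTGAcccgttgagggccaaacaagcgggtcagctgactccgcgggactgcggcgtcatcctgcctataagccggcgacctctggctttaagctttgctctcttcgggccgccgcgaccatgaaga
Atp6v1a, chr16:44139230-44139509, minus strand: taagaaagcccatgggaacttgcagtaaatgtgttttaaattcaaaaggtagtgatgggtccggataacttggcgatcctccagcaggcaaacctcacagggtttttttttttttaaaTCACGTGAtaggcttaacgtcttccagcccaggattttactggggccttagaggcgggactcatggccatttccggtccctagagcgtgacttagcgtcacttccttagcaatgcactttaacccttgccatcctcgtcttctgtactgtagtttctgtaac
Atp6v0e, chr17:26676146-26676425, plus strand: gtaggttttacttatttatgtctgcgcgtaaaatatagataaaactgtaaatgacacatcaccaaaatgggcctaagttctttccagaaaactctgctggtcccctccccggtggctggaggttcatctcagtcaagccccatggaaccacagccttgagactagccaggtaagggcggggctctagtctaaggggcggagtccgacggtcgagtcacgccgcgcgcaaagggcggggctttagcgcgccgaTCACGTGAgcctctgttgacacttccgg
Atp6v0d1, chr8:105566035-105566314, minus strand: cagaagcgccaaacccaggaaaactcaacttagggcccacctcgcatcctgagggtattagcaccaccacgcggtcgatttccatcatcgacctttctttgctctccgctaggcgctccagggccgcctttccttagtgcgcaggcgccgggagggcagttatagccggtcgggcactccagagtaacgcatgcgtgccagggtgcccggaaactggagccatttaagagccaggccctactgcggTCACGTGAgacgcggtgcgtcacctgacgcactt
Ctsa, chr2:164833523-164833802, plus strand: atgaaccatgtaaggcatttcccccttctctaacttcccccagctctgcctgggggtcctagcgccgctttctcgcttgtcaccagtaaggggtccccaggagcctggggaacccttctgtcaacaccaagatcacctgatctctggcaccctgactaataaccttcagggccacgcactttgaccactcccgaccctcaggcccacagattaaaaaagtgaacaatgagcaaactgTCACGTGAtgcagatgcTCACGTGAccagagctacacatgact
Mcoln1, chr8:3500269-3500548, plus strand: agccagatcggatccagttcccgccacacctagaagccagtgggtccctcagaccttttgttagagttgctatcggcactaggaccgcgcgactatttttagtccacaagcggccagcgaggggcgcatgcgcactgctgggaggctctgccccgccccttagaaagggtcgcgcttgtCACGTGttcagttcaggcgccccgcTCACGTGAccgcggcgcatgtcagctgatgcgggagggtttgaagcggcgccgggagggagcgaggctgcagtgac
Ctsl, chr13:64370491-64370770, minus strand: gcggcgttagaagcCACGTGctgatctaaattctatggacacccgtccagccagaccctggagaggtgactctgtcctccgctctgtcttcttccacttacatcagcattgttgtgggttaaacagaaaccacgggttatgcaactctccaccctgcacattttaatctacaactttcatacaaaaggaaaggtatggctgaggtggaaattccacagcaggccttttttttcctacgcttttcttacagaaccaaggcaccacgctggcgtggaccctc

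The 8 arrays had medians between 5.84 and 6.00 and lower quartiles between 4.98 and 5.36. Both arrays of replicate 3 stood apart, with a narrower spread over probe sets (SD 1.25 in denervated and 1.36 in innervated muscle) than the other 6 arrays (1.45 to 1.56). Several of the changes below are therefore also given without replicate 3. The muscle of the label showed in its defining markers: Acta1 and Tnnt3 lay between 11.69 and 12.81 on every array, and Ckm, Mylpf and Pygm were the 3 of 8 muscle fibre markers that fell in denervated muscle. Whether each array of a group stands for a mouse of its own is not stated in the labels, and the p-values describe the spread of these 8 samples, which may be technical. The muscles hold several cell types, and more cells of a type cannot be told apart from more RNA per cell.

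Below, a change is how far the denervated log2 intensity lies above the innervated one, from limma, a linear model across all genes, with same-numbered arrays as pairs. A gene rose or fell where its p, adjusted by Benjamini-Hochberg over all 14860 genes, was under 0.05. Of the 48 genes 10 rose (20.8%) and 0 fell, where 3.56% of all genes rose and 4.89% fell. Those that rose were the cathepsins Ctss, Ctsl, Ctsd and Ctsz, the pump genes Atp6v1a, Atp6ap2, Atp6v1h, Atp6v0d2 and Atp6v0e, and the membrane gene Laptm5. In 5 of the 48 genes all 4 denervated values lay above all 4 innervated ones, against 790 of the 14860 genes (5.32%). These 5, Ctss, Ctsl, Ctsz, Atp6v1h and Atp6ap2, were all among the 10 that rose, a call made from the same values. The median change over the 48 was 0.07, against -0.01 over all genes, and 38 of the 48 did not pass.

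**Figure D1:**
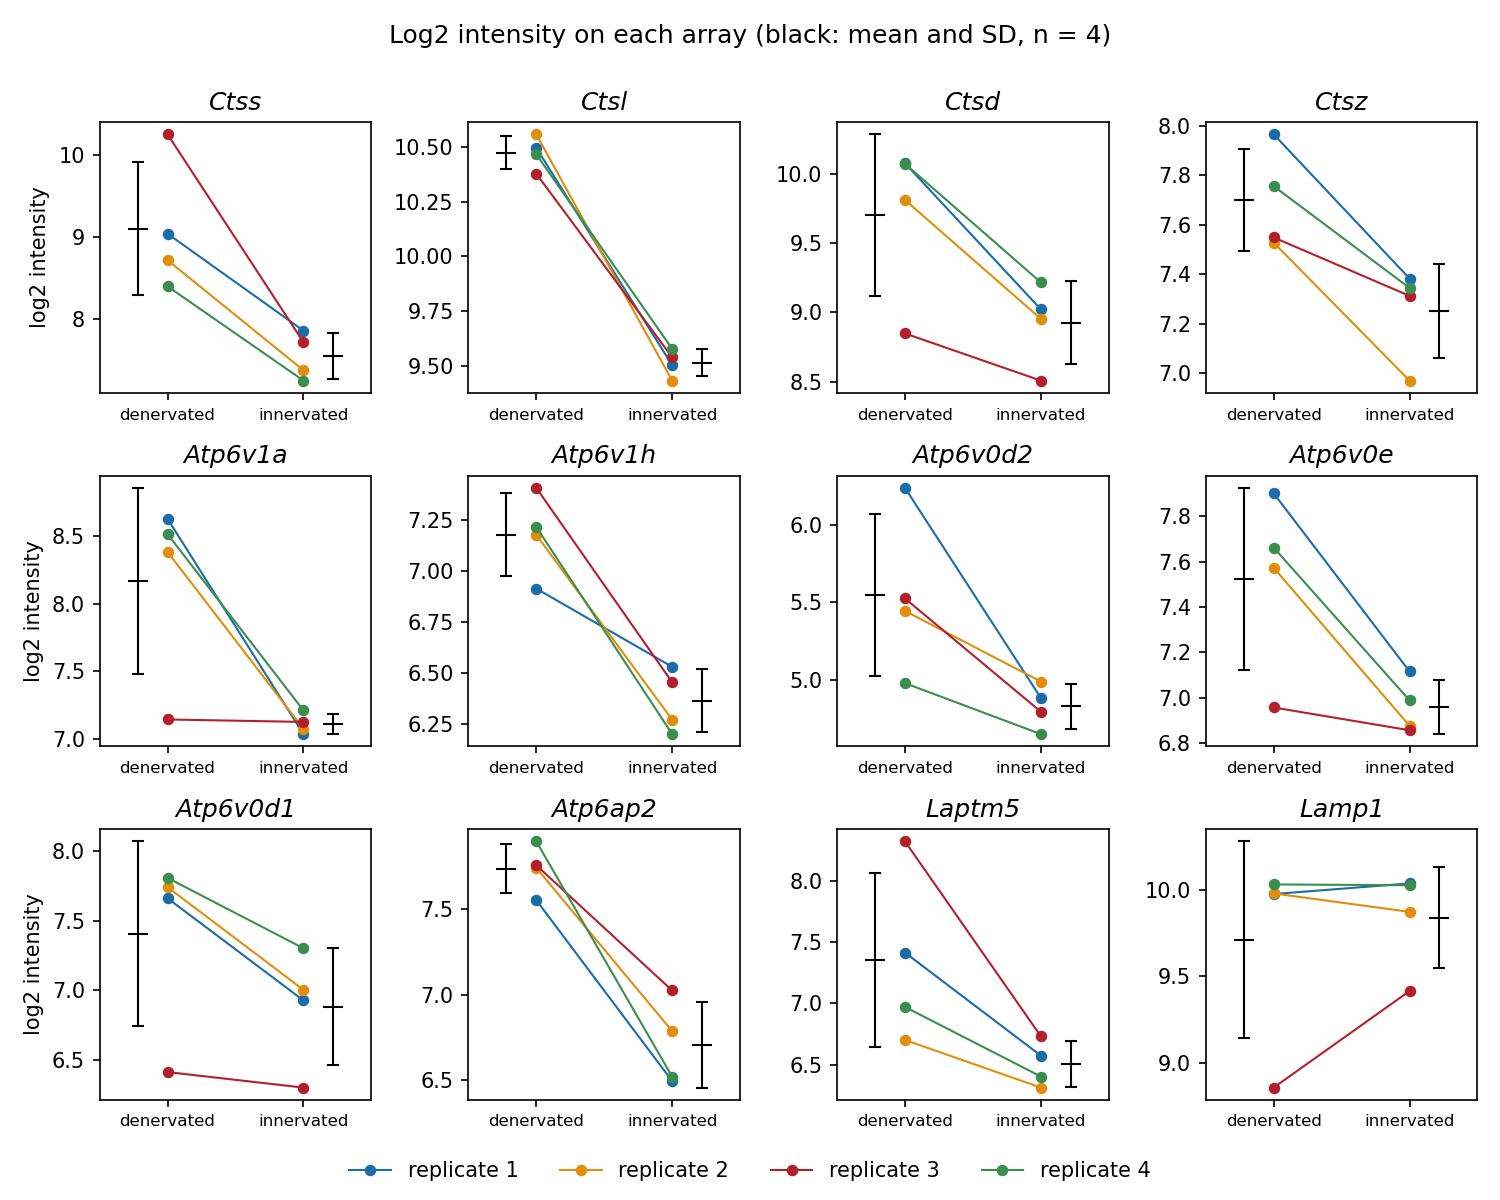
Log2 intensity of 12 of the genes on each array, denervated on the left and innervated on the right of each panel; thin lines join arrays with the same replicate number, and black marks give the mean ± SD of 4 arrays. Ctsl, Ctss, Ctsz, Atp6v1h and Atp6ap2 show no overlap between the groups, while in Atp6v1a denervated replicate 3 (7.14) sits among the innervated values.

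Of the 18 cathepsins 4 rose, 0 fell and 14 did not pass. Ctss, a cysteine protease that trims the invariant chain of MHC class II in antigen-presenting cells, was at 9.04, 8.71, 10.25 and 8.39 in denervated muscle, against 7.85, 7.37, 7.71 and 7.24 in innervated muscle. Every denervated array lay above every innervated one, and denervated replicate 3 was the highest. The change was 1.55 (SE 0.23, adjusted p = 0.0077), or 2.93-fold, and it was 1.22 without replicate 3. Ctsl, a lysosomal endopeptidase present in most tissues, was at 10.50, 10.56, 10.38 and 10.47 in denervated muscle, against 9.50, 9.43, 9.54 and 9.58 in innervated muscle. All 4 denervated values lay close together and above the innervated ones, with a change of 0.96 (SE 0.11, adjusted p = 0.00229), or 1.95-fold.

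Ctsd, the main aspartic protease of the lysosome, had values of 10.08, 9.81, 8.85 and 10.07 in denervated muscle, against 9.02, 8.95, 8.51 and 9.22 in innervated muscle. In both groups replicate 3 was the lowest, and the denervated value of that replicate lay below 3 of the innervated values, although each denervated array exceeded its innervated partner. The change was 0.78 (SE 0.14, adjusted p = 0.0146), or 1.72-fold, and 0.92 without replicate 3. Ctsz, a carboxypeptidase that removes single residues from protein ends, was at 7.96, 7.53, 7.55 and 7.76 in denervated muscle, against 7.38, 6.97, 7.31 and 7.34 in innervated muscle. The groups did not overlap, and the change of 0.45 (SE 0.11, adjusted p = 0.0486) was the smallest among the cathepsins that rose. Without the replicate block, Ctsd and Ctsz missed the threshold (adjusted p = 0.151 and 0.119), which leaves 2 cathepsins higher. Without replicates 1, 2 and 4 the adjusted p of Ctsd was 0.0906, 0.0638 and 0.0714 and that of Ctsz 0.209, 0.165 and 0.18, and that of Ctsz after median centring was 0.0633.

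Ctsb, an endopeptidase often paired with Ctsl in accounts of muscle wasting, had values of 9.31, 9.11, 8.72 and 9.16 in denervated muscle, against 9.18, 9.09, 8.59 and 9.28 in innervated muscle. The groups lay on top of each other, and the change of 0.04 did not pass, with a 95% interval from -0.20 to 0.28. Ctsk, the collagen-degrading cathepsin of osteoclasts, had the most negative change of the family, at 6.97, 6.31, 5.95 and 6.77 in denervated muscle, against 7.17, 6.76, 6.26 and 6.66 in innervated muscle. That change was -0.21 (SE 0.12, adjusted p = 0.391), and 3 of 4 denervated arrays lay below their partners. Ctsh, an aminopeptidase, was higher in every pair, with a change of 0.40 (SE 0.13, adjusted p = 0.112). Changes were close to 0 for Ctsa, a serine carboxypeptidase that also stabilises lysosomal glycosidases (0.01), Ctsf (-0.02), Ctso (0.07) and Ctsc, a dipeptidyl peptidase that activates granule proteases of leukocytes (0.06).

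The remaining 7 cathepsins were dim, in the lowest 25% of all genes by mean intensity. The aspartic protease Ctse had a change of 0.12. Ctsg, a serine protease of neutrophil granules, and Ctsw, which is found in cytotoxic lymphocytes, had changes of 0.06 and 0.07. For Ctsm, Ctsr, Ctsj and Ctsq, rodent cathepsins of the placenta, the changes were 0.34, 0.09, 0.03 and -0.17. That of Ctsm was 1.29 in pair 3 and 0.02 without replicate 3. These 4 are close copies of each other whose probes may share signal, so their values are uncertain. All of the 7 except Ctse lay below the lower quartile on every array, and the table has no detection calls to tell such values from background.

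Of 14 measured macrophage markers 6 (42.9%) rose (Cd68, Tyrobp, Fcer1g, Mrc1, C1qb and C1qc), 0 fell and 8 did not pass, where 3.56% of all genes rose and 4.89% fell. The median change of the markers was 0.58, and 0.52, 0.40, 0.72 and 0.60 in pairs 1 to 4. Their summed intensity on a linear scale ran from 1794 to 3229 in denervated and from 1020 to 1230 in innervated muscle. Tyrobp, an adaptor protein of myeloid cells, was at 9.53, 9.12, 9.71 and 9.12 in denervated muscle, against 8.04, 7.80, 7.79 and 7.62 in innervated muscle, a change of 1.56 (SE 0.13, adjusted p = 0.000765). Denervated replicate 3, where Ctss was highest, also had a value of 9.34 for the leukocyte gene Ptprc, against 6.09 on its innervated partner, and 8 lymphocyte markers had a median change of 0.88 in that pair, against 0.03, 0.16 and -0.22 in pairs 1, 2 and 4. None of the markers was at 0, as these values have no zeros. The part of these cells in the rise of Ctss was not tested.

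The proton pump showed rises of single subunits beside subunits that did not pass. Of 20 genes 5 rose and 0 fell. In the V1 part 2 of 11 rose. Atp6v1a, the catalytic A subunit that splits ATP, had values of 8.63, 8.38, 7.14 and 8.51 in denervated muscle, against 7.04, 7.07, 7.13 and 7.21 in innervated muscle. Denervated replicates 1, 2 and 4 stood more than 1 unit above every innervated array, but denervated replicate 3 lay within the innervated range. The change was 1.05 (SE 0.24, adjusted p = 0.0383), or 2.08-fold, and it was 1.40 without replicate 3 (adjusted p = 0.000839). It missed the threshold without replicates 1, 2 and 4 (0.185, 0.137 and 0.131), without the block (0.0631) and after median centring (0.0588). Atp6v1h, the H subunit, which regulates the coupling of V1 to V0, was at 6.92, 7.18, 7.41 and 7.22 in denervated muscle, against 6.53, 6.27, 6.46 and 6.20 in innervated muscle. Its groups did not overlap, denervated replicate 3 was the highest array, and the change was 0.81 (SE 0.13, adjusted p = 0.0113), or 1.76-fold, with adjusted p-values of 0.0537 and 0.063 without replicates 2 and 4.

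The B subunit forms the catalytic ring together with A, and neither of its genes passed. Atp6v1b2, the form found in most tissues, had values of 7.48, 7.52, 6.74 and 7.39 in denervated muscle, against 7.55, 7.71, 7.22 and 7.62 in innervated muscle. Every denervated array lay below its innervated partner while the groups overlapped, and the change was -0.24 (SE 0.11, adjusted p = 0.259), with a 95% interval of -0.50 to 0.02. Atp6v1b1, the form of kidney and inner ear, was at 5.65, 5.42, 5.84 and 5.51 in denervated muscle, against 5.48, 5.83, 5.79 and 5.45 in innervated muscle. Its change was -0.03 (SE 0.13, adjusted p = 0.934), and neither B gene passed under any of the alternatives that tested it.

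The E subunit belongs to the outer stalks that hold the ring in place. Atp6v1e1 was at 9.79, 9.86, 8.99 and 9.99 in denervated muscle, against 9.43, 9.19, 9.07 and 9.46 in innervated muscle. It was higher in pairs 1, 2 and 4 and not in pair 3, with a change of 0.37 (SE 0.14, adjusted p = 0.18); it passed without replicate 3 (0.0295), with array weights (0.0245) and after quantile (0.0353) or cyclic loess (0.0266) normalization. Atp6v1e2, known from testis, was dim, at 4.38, 4.52, 4.59 and 4.19 in denervated muscle, against 4.76, 4.56, 5.41 and 4.55 in innervated muscle. It was lower in all 4 pairs, with a change of -0.40 (SE 0.14, adjusted p = 0.143), or -0.26 without replicate 3, and innervated replicate 3 stood above the rest. The difference between the 2 E genes was not tested.

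Subunit C joins the outer stalks to the membrane part. Atp6v1c1 had values of 8.40, 8.42, 7.79 and 8.45 in denervated muscle, against 8.33, 8.05, 8.04 and 8.19 in innervated muscle, with 1 low denervated array, replicate 3, and a change of 0.11 (SE 0.13, adjusted p = 0.727). Atp6v1c2, a form known from kidney and lung, was at 5.27, 5.10, 5.54 and 5.17 in denervated muscle, against 5.32, 5.36, 5.73 and 5.25 in innervated muscle. It was lower in every pair, and the groups overlapped (change -0.15, SE 0.10, adjusted p = 0.499). Atp6v1d, part of the central rotor, was at 9.55, 9.83, 9.16 and 9.83 in denervated muscle, against 9.78, 9.61, 9.64 and 9.64 in innervated muscle. The groups overlapped, with a change of -0.08 (SE 0.15, adjusted p = 0.849). Of the genes of stalk subunit G, Atp6v1g2, known from neurons, was at 6.91, 7.10, 6.50 and 6.81 in denervated muscle, against 6.72, 6.80, 6.73 and 6.71 in innervated muscle. Its groups overlapped, with a change of 0.09. Atp6v1g3, known from kidney, was at 4.25, 4.36, 4.70 and 4.30 in denervated muscle, against 4.23, 4.18, 4.75 and 4.17 in innervated muscle. Here replicate 3 was the highest array of both groups, and the change was 0.07.

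In the V0 part 2 of 7 genes rose. Atp6v0d2, a form of the d subunit that couples the rotor to the membrane ring and is known from osteoclasts and kidney, was at 6.24, 5.44, 5.52 and 4.98 in denervated muscle, against 4.88, 4.99, 4.79 and 4.65 in innervated muscle. All 4 innervated values lay below the lower quartile of their own arrays, denervated replicate 1 was far the highest, and the lowest denervated value lay just under the highest innervated one. The change was 0.72 (SE 0.17, adjusted p = 0.0468), or 1.65-fold, on an intensity scale that may understate changes of dim genes. It missed the threshold without the block (0.116) and without any 1 of the 4 replicates (0.14, 0.0905, 0.0701 and 0.0673). Atp6v0d1, the widely expressed d form, was at 7.66, 7.74, 6.41 and 7.81 in denervated muscle, against 6.93, 7.00, 6.30 and 7.30 in innervated muscle. Here too every pair was higher, and denervated replicate 3 lay far below the other 3 denervated arrays. The change of 0.52 (SE 0.13, adjusted p = 0.0564) just missed the threshold, and Atp6v0d1 passed under 6 of the 15 alternatives, among them leaving out replicate 3 (change 0.66, adjusted p = 0.0108).

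Atp6v0e, a small subunit of the membrane part, was at 7.90, 7.57, 6.96 and 7.66 in denervated muscle, against 7.12, 6.88, 6.86 and 6.99 in innervated muscle. Denervated replicates 1, 2 and 4 lay above all innervated arrays and replicate 3 among them, with a change of 0.56 (SE 0.14, adjusted p = 0.0489), or 1.48-fold. It missed the threshold without replicates 1, 2 and 4 (0.216, 0.164 and 0.193), without the block (0.133) and after median centring (0.0706). Its homologue Atp6v0e2, known from brain, was at 6.55, 6.36, 6.43 and 6.66 in denervated muscle, against 6.55, 6.59, 6.80 and 6.63 in innervated muscle, with a change of -0.15 (SE 0.11, adjusted p = 0.556) and overlapping groups. The a subunit forms the path of the protons. Atp6v0a1 was at 8.59, 8.04, 7.27 and 8.56 in denervated muscle, against 7.90, 7.86, 7.59 and 8.04 in innervated muscle, higher in pairs 1, 2 and 4 and lower in pair 3, with a change of 0.27 (SE 0.17, adjusted p = 0.448), or 0.46 without replicate 3. Atp6v0a2 was at 6.96, 6.90, 6.62 and 7.10 in denervated muscle, against 7.25, 7.23, 6.98 and 7.41 in innervated muscle. It was lower in all 4 pairs, with a change of -0.33 (SE 0.10, adjusted p = 0.0915); it passed as lower with array weights (0.0449) and with the dimmest 50% of genes left out (0.0442). Atp6v0b, a proteolipid of the membrane ring, had a change of 0.04.

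Of the 2 accessory genes 1 rose. Atp6ap2, the (pro)renin receptor, which is needed to assemble the pump, was at 7.55, 7.74, 7.76 and 7.90 in denervated muscle, against 6.50, 6.79, 7.03 and 6.52 in innervated muscle. Every denervated array lay above every innervated one, and the change of 1.03 (SE 0.13, adjusted p = 0.00396), or 2.04-fold, kept its call under all 15 alternatives, as did Ctsl and Ctss. Atp6ap1, the other accessory subunit, was at 8.82, 8.54, 7.72 and 8.86 in denervated muscle, against 8.74, 8.55, 8.10 and 8.86 in innervated muscle. It had a change of -0.08 (SE 0.12, adjusted p = 0.794), with replicate 3 the lowest array of both groups. Over the whole pump, 2 genes rose without the replicate block, Atp6ap2 and Atp6v1h. Without replicate 1 the count was 2, without replicate 2 or 4 it was 1, and after median centring it was 3.

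**Figure D2:**
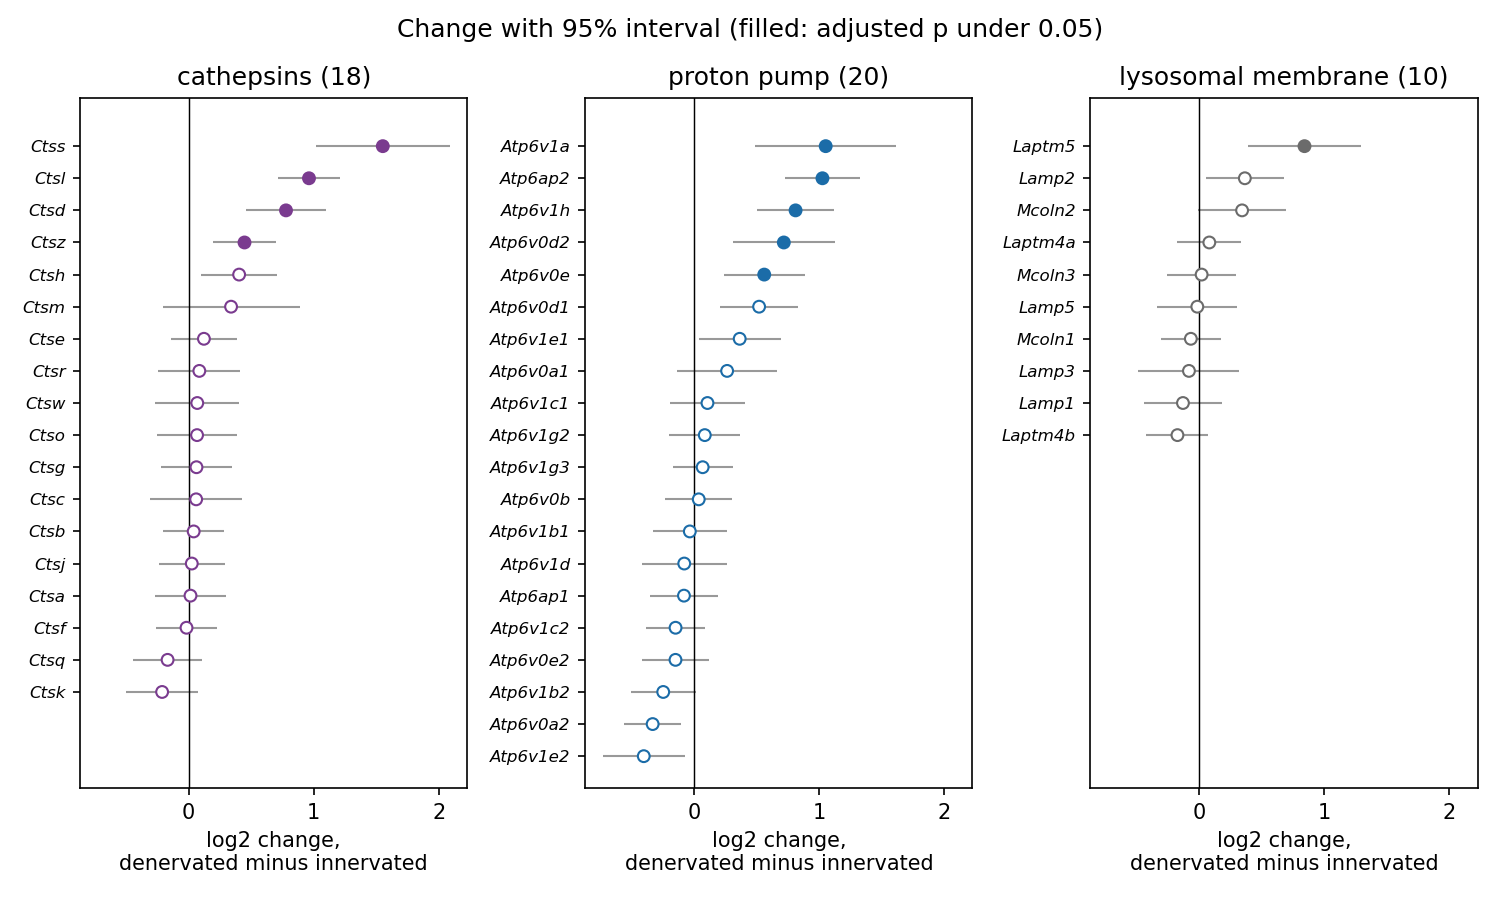
Change of each of the 48 genes, denervated minus innervated log2 intensity, with its 95% interval from limma; filled points passed at an adjusted p under 0.05. The 10 filled points run from 0.45 (Ctsz) to 1.55 (Ctss), and no gene passed below 0.

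Of the 10 membrane genes 1 rose and 0 fell. Laptm5, a lysosomal transmembrane protein of blood cells, was at 7.41, 6.70, 8.32 and 6.97 in denervated muscle, against 6.58, 6.32, 6.73 and 6.41 in innervated muscle. Denervated replicate 3 was the highest, as for Ctss, and the lowest denervated value lay just under the highest innervated one. The change was 0.84 (SE 0.19, adjusted p = 0.0375), or 1.8-fold, and 0.60 without replicate 3 (adjusted p = 0.0242). The macrophage markers given above had a median change of 0.58, and their part in the rise of Laptm5 was not tested. Leaving out replicates 1, 2 and 4 gave adjusted p-values of 0.157, 0.0532 and 0.0784. Laptm5 also did not pass in the fit with no block (0.158) or a random one (0.052), nor after quantile (0.0754) or loess (0.0505) normalization. Its relatives did not pass. Laptm4a, found in most tissues, was at 9.27, 9.43, 8.98 and 9.40 in denervated muscle, against 9.20, 9.31, 9.10 and 9.12 in innervated muscle, with overlapping groups and a change of 0.08 (SE 0.11, adjusted p = 0.76). Laptm4b was at 6.58, 6.60, 6.62 and 6.54 in denervated muscle, against 6.91, 6.81, 6.62 and 6.68 in innervated muscle, level in pair 3 and lower in the others, with a change of -0.17 (SE 0.11, adjusted p = 0.432).

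Lamp1 and Lamp2 encode the main glycoproteins that line the lysosomal membrane. Lamp1 was at 9.98, 9.98, 8.86 and 10.03 in denervated muscle, against 10.04, 9.87, 9.41 and 10.03 in innervated muscle. Apart from a low denervated replicate 3 the groups coincided, and the change was -0.13 (SE 0.13, adjusted p = 0.688), or 0.02 without replicate 3. Lamp2, whose loss in humans causes a myopathy with stalled autophagy, was at 9.27, 9.64, 9.18 and 9.45 in denervated muscle, against 9.27, 9.0, 8.92 and 8.88 in innervated muscle. Denervated values of pairs 2, 3 and 4 exceeded their partners while pair 1 was level, and the change of 0.37 (SE 0.13, adjusted p = 0.161) missed the threshold. Lamp3, known from dendritic cells, and Lamp5, known from neurons, lay below the lower quartile on every array and had changes of -0.08 and -0.01.

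The mucolipins are cation channels that release calcium from the lysosome. Mcoln1, the form found in most tissues, was at 7.31, 7.27, 6.79 and 7.13 in denervated muscle, against 7.30, 7.29, 6.83 and 7.34 in innervated muscle. Replicate 3 was low in both groups and the change was -0.06 (SE 0.10, adjusted p = 0.81). Mcoln2, known from lymphoid and myeloid cells, was at 5.22, 5.42, 6.05 and 5.01 in denervated muscle, against 5.07, 5.03, 5.20 and 4.99 in innervated muscle. It was higher in every pair, most in pair 3, with a change of 0.35 (SE 0.15, adjusted p = 0.238), or 0.18 without replicate 3, and Mcoln3, dim on every array, had a change of 0.02.

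Set against each other, the proteases and the proton pump did not separate. The cathepsins had 4 of 18 genes higher (22.2%) and a median change of 0.07, and the pump 5 of 20 (25%) and a median of 0.08, both beside 3.56% and -0.01 over all genes. Without replicate 3 the medians were -0.0039 for the cathepsins, 0.15 for the pump and -0.03 for all genes. The changes of single genes spread alike, with an SD of 0.44 in each group against 0.36 over all genes. Taken pair by pair, the median change of the cathepsins was 0.16, -0.05, 0.34 and -0.01 in pairs 1 to 4, and that of the pump 0.17, 0.21, -0.17 and 0.22. The cathepsin minus the pump median was therefore -0.01, -0.26, 0.51 and -0.22, with a mean of 0.004 ± 0.35 (SD, n = 4 pairs). It was near 0 or below in 3 pairs and above it in pair 3, and the mean was far smaller than the spread between pairs. On the changes of the fit, the difference of the medians was -0.01, and -0.16 without replicate 3.

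**Figure D3:**
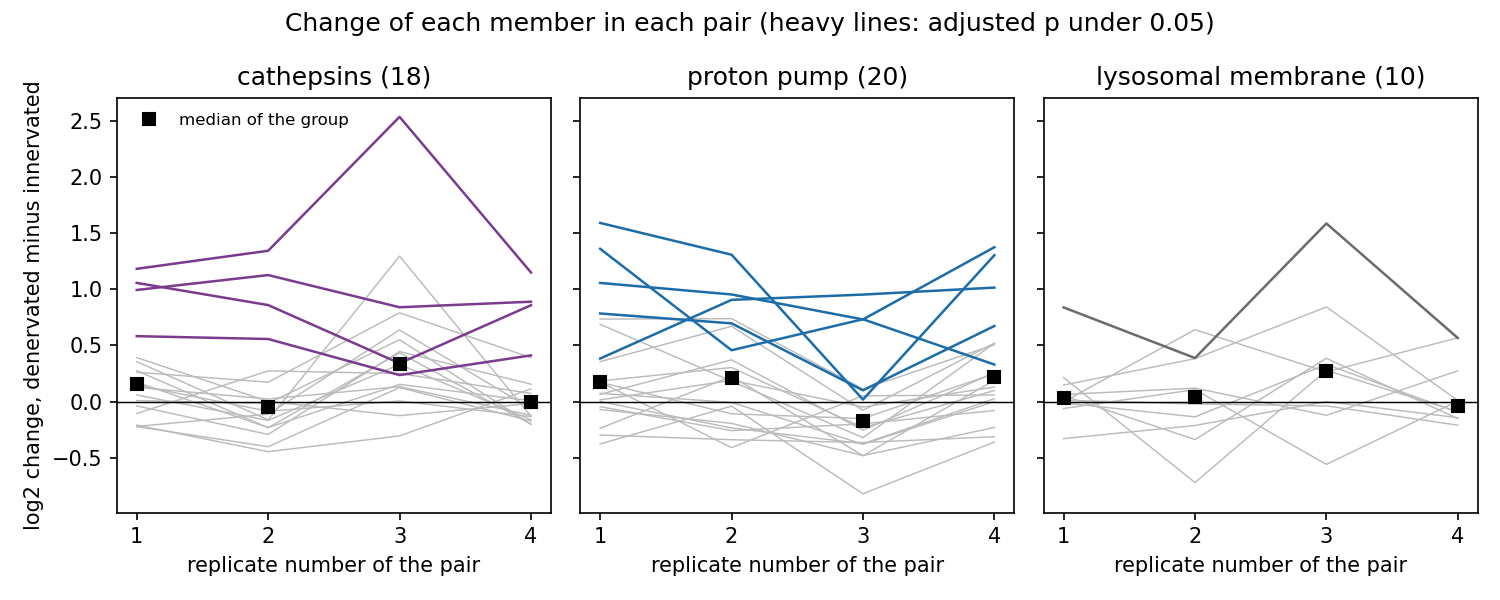
Change of each gene in each of the 4 pairs (denervated minus innervated array of the same number, log2), with lines joining 1 gene, heavy for genes that rose, and squares at the median of the cathepsins, the proton pump and the membrane genes; the pairs have no order. In pair 3 the pump median lies at -0.17 and the cathepsin median at 0.34, while in pairs 2 and 4 the pump median is the higher.

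Pair 3 was the only pair in which the cathepsin median lay above the pump median. The change in pair 3 was the lowest of the 4 pairs for 16 of 20 pump genes (80%), 4 of 18 cathepsins and 2 of 10 membrane genes, against 30.7% of all genes and 56.9% of the 529 that rose. It was the highest of the 4 pairs for 10 of 18 cathepsins (55.6%), 6 of 10 membrane genes and 0 pump genes, against 35.5% of all genes. The median change over all genes depended on intensity, and not in pair 3 alone. With the genes ranked by intensity, it was 0.14 in the dimmest 25% in pair 3. In the next bins of that size it was 0.09 and 0.03, and in the brightest -0.19. From the dimmest to the brightest bin it ran the other way in pairs 2 (-0.13 to 0.09) and 4 (-0.07 to 0.03). In pair 1 it was 0.04 in the dimmest and -0.03 in the brightest. The brightest 25% of genes held 12 of 20 pump genes and 8 of 18 cathepsins, and the dimmest 25% held 3 pump genes and 7 cathepsins. After quantile normalization the pair 3 medians were 0.44 for the cathepsins and -0.10 for the pump. How far array intensity or leukocyte RNA accounts for the contrast in pair 3, or for the opposite one in pairs 2 and 4, was not tested.

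Promoters with and without the TCACGTGA element were found among genes that rose and genes that did not. Of the 10 genes that rose 8 had a window, and 3 of these, Atp6v0e, Atp6v1a and Ctsd, held TCACGTGA. It was held by 6 of the 38 genes of these families with a window (15.8%), risen or not. Over the whole table it was held by 16 of 425 risen genes (3.76%). With Ctsl, 4 of the 8 held CACGTG, against 11 of the 38 (28.9%) and 70 of 425 (16.5%). Of the other genes with TCACGTGA, none passed, with changes of 0.01 for Ctsa, -0.06 for Mcoln1 and 0.52 for Atp6v0d1. Ctss, Ctsz, Atp6ap2 and Laptm5, which rose, had a window with neither string, and Atp6v1h and Atp6v0d2 had no window in the table.

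The wider lysosomal pathway, with protease inhibitors, was described by 8 lists holding 101 measured genes. Of these 8 rose (7.92%) and 2 fell, with a median change of 0.08, beside 3.56% and 4.89% over all genes. The list of 6 protease inhibitors held 4 of the 8 that rose, and the rest were Hexa, Lgmn, Ifi30 and Cd68. Among lipid hydrolases, sorting genes, regulators and further pump genes 0 rose. All 8 are called lysosomal lists below, though the inhibitors include the cytosolic Cstb and the secreted Cst3. The shares of the glycan hydrolases (4.55%) and other membrane proteins (4.76%) that rose, described next, lay near that of all genes. Of 6 protease inhibitors, cystatins and serpins among them, 4 rose and 0 fell, with a median of 0.65. Cst6, the cysteine protease inhibitor cystatin E/M, was at 8.98, 8.87, 7.35 and 9.07 in denervated muscle, against 6.40, 6.66, 6.59 and 6.79 in innervated muscle. The groups did not overlap, and the change was 1.96 (SE 0.27, adjusted p = 0.00597), or 3.88-fold. Cstb, cystatin B, a cytosolic inhibitor of cathepsins including L and B, was at 8.62, 8.61, 8.19 and 8.38 in denervated muscle, against 7.72, 7.65, 7.32 and 7.32 in innervated muscle, again without overlap and with a change of 0.95 (SE 0.10, adjusted p = 0.00207). The serpins Serpina3n and Serpinb6a rose by 0.86 and 0.45 (adjusted p = 0.0158 and 0.0442), and both missed the threshold without the block (0.174 and 0.155). Cst3, the secreted cystatin C, had a change of 0.08.

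Among 11 lysosomal enzymes other than glycan and lipid hydrolases 2 rose. Lgmn, an asparaginyl endopeptidase that processes cathepsins B, H and L, was at 7.60, 7.60, 6.51 and 7.52 in denervated muscle, against 6.87, 6.48, 5.98 and 6.53 in innervated muscle. Denervated replicates 1, 2 and 4 lay above all innervated arrays and replicate 3 lay within the innervated range; the change was 0.84 (SE 0.13, adjusted p = 0.00853), and 0.114 was its adjusted p without the block. Ifi30, a lysosomal thiol reductase of antigen-presenting cells, rose by 0.62 (SE 0.11, adjusted p = 0.015, and 0.102 without the block). Of 22 glycan hydrolases 1 rose, the beta-hexosaminidase subunit Hexa (change 0.51, SE 0.12, adjusted p = 0.048), and of 10 lipid hydrolases and their activators 0 rose and 1 fell, the acid sphingomyelinase Smpd1 (change -0.70, SE 0.13, adjusted p = 0.016). Smpd1 was at 7.06, 6.85, 6.32 and 6.90 in denervated muscle, against 7.42, 7.50, 7.28 and 7.74 in innervated muscle, with every denervated array below every innervated one.

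Of 21 other membrane proteins 1 rose, the macrophage protein Cd68 (change 1.19, SE 0.10, adjusted p = 0.00104), which is also in the marker list above. Of 11 genes that sort enzymes to the lysosome and of 7 further pump genes, the a3 subunit Tcirg1 included (0.15), 0 rose and 0 fell. Of 13 regulators 0 rose and 1 fell, Rragd, a GTPase that recruits mTORC1 to the lysosome, at 8.83, 8.97, 7.83 and 8.97 in denervated muscle, against 9.49, 9.42, 9.43 and 9.62 in innervated muscle. Its groups did not overlap, its lowest value was denervated replicate 3, and the change was -0.84 (SE 0.19, adjusted p = 0.0363); it missed the threshold without the block (0.074) and after median centring (0.0613). The mRNA levels of the factors that bind the element shown above gave changes of -0.30 for Tfeb, 0.01 for Tfe3, -0.06 for Mitf and 0.54 for Tfec, none past the threshold (adjusted p = 0.281, 0.977, 0.833 and 0.124).

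**Figure D4:**
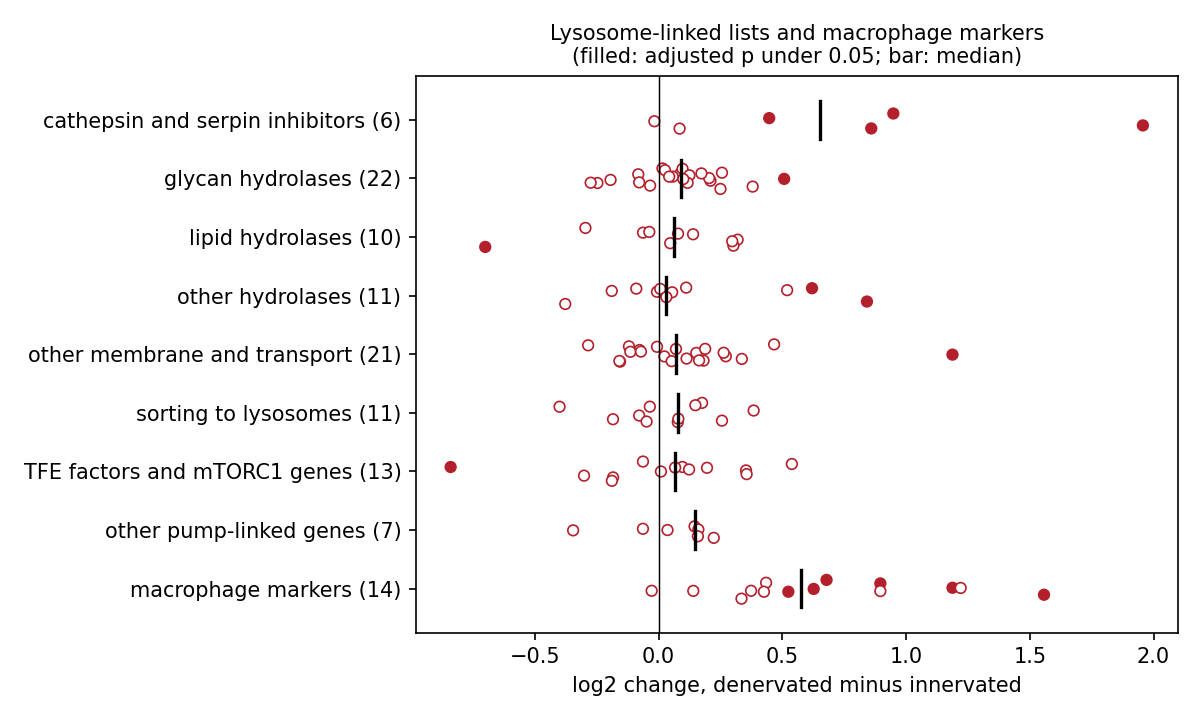
Change (denervated minus innervated log2 intensity) of each measured gene of the 8 other lysosomal lists and of the macrophage markers, with the number of genes beside each list, a bar at its median and filled points for genes past the threshold. The protease inhibitors have a median of 0.65 and the macrophage markers of 0.58, while the other 7 medians lie between 0.03 and 0.15.

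Of 7 neutrophil markers 1 rose, S100a8, with a list median of 0.24 and 2 changes below 0. S100a8 (2.87) and S100a9 (1.55, not past the threshold) had by far the largest changes of that list. Its summed linear intensities were 282 to 1326 in denervated and 252 to 297 in innervated muscle. Of 8 lymphocyte markers 1 rose, Gzmb, with a list median of 0.28 (sums of 295 to 663 in denervated and 259 to 321 in innervated muscle). These counts stand beside 3.56% of all genes that rose and 4.89% that fell, as do those below. Of 7 fibroblast markers 1 rose, Lum (change 0.60). The changes of 4 others were below 0 and did not pass, namely Col1a1 (-0.49), Col1a2 (-0.46), Dcn (-0.12) and Pdgfra (-0.03). The fibroblast list had a median of -0.03, with sums of 3030 to 4685 in denervated and 3441 to 5391 in innervated muscle. Of 6 endothelial markers 2 fell, Kdr and Emcn, and all 6 had changes below 0 (sums of 600 to 866 in denervated and 783 to 1158 in innervated muscle). Of 3 Schwann cell markers 1 fell, Pmp22 (change -1.63), while S100b (0.13) and Sox10 (0.07) did not pass and had changes above 0. The sums of the 3 were 272 to 389 in denervated and 298 to 1258 in innervated muscle. The 8 muscle fibre markers summed to 16927 to 23449 in denervated and 25350 to 29836 in innervated muscle. The part of these shifts in the changes of the lysosomal genes was not tested.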

How the data were processed

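The authors deposited a log2 intensity for each probe set on each array, from GCOS and RMA, per the submitters' processing notes, which also name the build mm9, with program versions not given in the sources used here. Precision is limited by the number of arrays. Of 16755 probe sets 14996 had 1 gene symbol, and for genes with several sets the one with the highest mean was kept. The deposited values were fitted in R 4.3.3 by limma 3.58.1 with group and replicate number as terms, two-sided, with Benjamini-Hochberg adjustment over 14860 genes and a threshold of 0.05; degrees of freedom were 3 residual and 4.57 prior. The fit was also run on simulated data in which every array had the same spread. Such data lack the narrower arrays of replicate 3 and cannot show how these affect the calls.

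The replicate number was used as a block because the design text sets each denervated muscle against the contralateral one, although the labels never state outright that a number marks a mouse. Across genes, the deviations of same-numbered arrays from their group means correlated at 0.23, -0.03, 0.45 and 0.35 for numbers 1 to 4, so number 2 showed no pairing. Only for numbers 3 and 4 was the same-numbered array the best match in both directions. Innervated array 1 matched denervated array 4 best.

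The genes and lists were chosen with earlier results of these data known. Values on every array are given for genes that passed, that passed only under an alternative, that had the highest intensity or the largest change either way in their class, and for pump isoforms; of the other lists, for some that passed and for Tyrobp. The 15 alternatives were no block, a random block, quantile, median and cyclic loess normalization, the dimmest 25% or 50% of genes left out, array weights, trended and robust moderation, probe sets averaged per gene, probe sets kept single, and leaving out each replicate. Promoters and gene names came from RefSeq tables of GRCm38.p6, and all 48 genes matched.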

Additional observations from a re-analysis of the deposited data

Results flagged for a closer look

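In 10 of 96 groups of 4 arrays, 1 array lay far from the other 3 by Dixon's test, where chance gives about 1 in 20, and 9 of the 10 were arrays of replicate 3. In denervated replicate 3 the pump genes Atp6v1a (7.14), Atp6v0d1 (6.41), Atp6v1c1 (7.79) and Atp6v1b2 (6.74) and the membrane gene Lamp1 (8.86) were far below the other denervated arrays, and the cathepsins Ctso (6.66) and Ctsj (5.05) far above them. In innervated replicate 3 Mcoln1 was low (6.83) and Atp6v1g3 high (4.75). The remaining one was Ctsz, low in innervated replicate 2 (6.97).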

How the results depend on the processing

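Ctsl, Ctss and Atp6ap2 passed under all 15 alternatives, and each of the 10 genes that rose kept its direction under every alternative that tested it. With same-numbered arrays not treated as pairs (no block), 2 cathepsins, 2 pump genes and 0 membrane genes rose, and 326 of all genes rose and 474 fell. With array weights 1058 of all genes rose and 1142 fell, and 1 pump gene, Atp6v0a2, fell, as 1 did with the dimmest 50% left out. Median centring gave 3 higher pump genes, and 0 membrane genes rose with the random block and after quantile or cyclic loess normalization. Leaving out each replicate in turn gave 2 to 4 higher cathepsins, 1 to 6 higher pump genes, 0 to 1 higher membrane genes, and 137 to 862 higher and 210 to 781 lower over all genes, with the high ends without replicate 3. The cathepsin minus pump difference of the medians ran from -0.16 to 0.06.

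Only genes that did not pass changed sign. The change was -0.0482 for Ctsr, -0.04 for Ctsw, -0.0544 for Ctsc, -0.0088 for Ctsb, -0.0692 for Ctsa, -0.0486 for Mcoln3 and 0.0389 for Atp6v1d with array weights, 0.0007 for Lamp5 and 0.0027 for Atp6v1d after quantile normalization, and 0.0259 for Atp6v1d after cyclic loess normalization. With each replicate left out in turn, the change ran across 0 from -0.129 to 0.0221 for Atp6ap1, -0.0297 to 0.103 for Atp6v0b, -0.0998 to 0.0948 for Atp6v1b1, -0.176 to 0.0592 for Atp6v1d, -0.0903 to 0.0758 for Ctsa, -0.132 to 0.154 for Ctsc, -0.0712 to 0.022 for Ctsf, -0.0469 to 0.125 for Ctsg and -0.0237 to 0.111 for Ctsj. It did so too from -0.0587 to 0.187 for Ctso, -0.0696 to 0.182 for Ctsr, -0.0526 to 0.17 for Ctsw, -0.205 to 0.0165 for Lamp1, -0.199 to 0.134 for Lamp3, -0.145 to 0.0961 for Lamp5 and -0.0808 to 0.0747 for Mcoln3. The cause of these shifts was not tested.

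The other lysosomal genes and the markers that passed were put through the alternatives after the data were seen. Cstb, Cd68, Tyrobp, Ckm and Pygm kept their calls under all 15. With a replicate left out, the lysosomal genes that missed the threshold, with their adjusted p, were Cst6 (0.0518), Hexa (0.212), Lgmn (0.055), Ifi30 (0.0953), Rragd (0.128), Serpina3n (0.0751) and Serpinb6a (0.184) without replicate 1, Hexa (0.143), Ifi30 (0.0653), Smpd1 (0.0595), Rragd (0.0588), Serpina3n (0.0683) and Serpinb6a (0.144) without replicate 2, and Hexa (0.2), Lgmn (0.0502), Smpd1 (0.0883), Rragd (0.0903), Serpina3n (0.0641) and Serpinb6a (0.215) without replicate 4. Lgmn (0.114), Ifi30 (0.102), Rragd (0.074), Serpina3n (0.174) and Serpinb6a (0.155) also missed it without the block, and Hexa (0.0648), Rragd (0.0613) and Serpinb6a (0.0598) after median centring. The other markers that passed lost their calls in 2 to 5 alternatives, at 0.0521 to 0.173.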
